A study of Homo sapiens with 192 samples.

Results

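The IFIT and IFITM families are interferon-induced antiviral genes, and 7 of them were followed here across 4 human colorectal cancer (CRC) cell lines. The members were IFIT1, IFIT2, IFIT3 and IFIT5, and IFITM1, IFITM2 and IFITM3, which is 7 of the 58243 genes listed. They were matched by Ensembl identifier, and all 7 were among the 19387 genes that passed the filter on low counts. IFITM1 had been picked because its counts rose in HCT116 cells grown in 3D, and the other members were taken as its relatives. The HCT116 values of the members are therefore given as a description, without a test. Counts of other genes called in HCT116 are a description as well.

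RNA sequencing was performed on HT29, LS513, HCT116 and LS174T cells grown in 2D or in 3D, with 3 libraries for each of the 8 groups and 24 libraries in all. Microsatellites are stable in LS513 and HT29 and unstable in LS174T and HCT116. The labels name no drug or cytokine, and the only labelled difference within a line is the growth condition. HCT116 was maintained in McCoy medium and the other lines in DMEM, both with fetal bovine serum, so for HCT116 the line and its medium cannot be told apart. The sources used here do not say how the 3D cultures for RNA were made or whether the libraries of a group came from separate cultures, so p-values measure the spread between these libraries.

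Library totals ran from 18723942 to 34277421 counts, and the lowest belonged to HT29 grown in 2D. A floor of 3 counts in a library corresponded to 0.0875 to 0.160 CPM (counts scaled to a common library size). The 9 epithelial markers summed to between 2874 and 17308 CPM in every library, and KRT8 reached 9227 CPM. Leukocyte markers summed to at most 17.7 CPM and fibroblast markers to at most 22.1 CPM, nearly all of it CD14 (up to 15.1 CPM) and COL1A1 (up to 21.8 CPM). PTPRC had at most 2 counts in any library, and CD3E and COL1A2 had 0 in all of them. Some epithelial markers were low in single lines: CDX1, VIL1 and LGALS4 were as low as 0, 0.133 and 0.0906 CPM in HCT116 libraries, and CDX2 as low as 0.963 CPM in HT29. KRT20 was as low as 0.604 CPM in its lowest library.

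Interferons bound to their receptors activate the kinases JAK1 and TYK2. A transcription factor complex that includes STAT2 and IRF9 then forms and binds the interferon-stimulated response element (ISRE) in the promoters of the induced genes. IFIT proteins are cytoplasmic proteins built from tetratricopeptide repeats that bind viral RNA. IFITM proteins are small membrane proteins that hinder the fusion of enveloped viruses with the membranes of the cell. In bulk RNA, a change in the number of cells that express a gene and a change in the RNA per cell cannot be told apart.

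The 4 IFIT genes lie in a row on the plus strand of chromosome 10 (GRCh38, GENCODE 29). IFIT2 (ENSG00000119922) spans chr10:89283694-89309276, IFIT3 (ENSG00000119917) chr10:89327894-89340971, IFIT1 (ENSG00000185745) chr10:89392546-89406486 and IFIT5 (ENSG00000152778) chr10:89414586-89421001. The IFITM genes are close together on chromosome 11. IFITM2 (ENSG00000185201) spans chr11:307631-315272 and IFITM1 (ENSG00000185885) chr11:313506-315272 on the plus strand, and IFITM3 (ENSG00000142089) chr11:319669-327537 on the minus strand. All 7 are protein-coding. IFITM1 shares 32.5% of its exonic bases with IFITM2 on the same strand, and 29.8% of its 75-base transcript windows also occur in another gene, against 24.2% for IFITM2 and 23.9% for IFITM3. Reads from the shared stretches can be lost or assigned to either gene, so the levels of the 3 IFITM genes are less certain than those of IFIT1, IFIT3 and IFIT5, which shared no window. IFIT2 shared 6.88% of its windows with AL353751.1, a gene with 37 counts over all libraries.

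The promoter letters are shown because both families are known as interferon-induced and the ISRE is the element through which that induction is known to work. For such genes matches were likely in advance, and nothing is read from their count. RefSeq promoters (GRCh38.p14, 250 bases before to 50 after the start) were at hand for 5 of the 7 members, with 2 starts for IFIT3, and not for IFIT2 and IFITM2. The ISRE core, GAAA followed by any 2 bases and GAAA, was searched on both strands, and all 6 promoters held it, against 1255 of 35116 RefSeq promoters (3.57%). In the windows printed next, 5′ to 3′ on the strand of the gene, capitals mark each match.
IFIT1, chr10:89392504-89392532, plus strand: tagTTTCACTTTCcccTTTCGGTTTCcct
IFIT3, chr10:89327836-89327855, plus strand: ttaggTTTCATTTTCctcct
IFIT3, chr10:89327870-89327889, plus strand: attagTTTCACTTTCcagtt
IFIT5, chr10:89414518-89414537, plus strand: ttaagTTTCGGTTTCtgaag
IFIT5, chr10:89414547-89414575, plus strand: agTTTCGATTTCttaagTTTCAGTTTCtg
IFITM1, chr11:313995-314014, plus strand: agcagGAAATAGAAActtaa
IFITM1, chr11:314029-314048, plus strand: tctgaGAAACTGAAAcgaca
IFITM3, chr11:320885-320913, minus strand: gGAAAAGGAAActgttgaGAAACCGAAAc

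IFIT5 held 3 matches and each other promoter 2. The IFIT1 matches began 116 and 103 bases before the RefSeq start, and those of the upstream IFIT3 start 156 and 122 bases before it. In IFIT5 they began 45, 19 and 4 bases before the start, in IFITM1 40 and 6 bases and in IFITM3 52 and 35 bases. The core reads on the strand opposite to the gene in IFIT1, IFIT3 and IFIT5 and on the strand of the gene in IFITM1 and IFITM3. The palindromic GAS core (TTC, any 3 bases, GAA), another element of interferon signalling, occurred in 2689 of the 35116 promoters (7.66%) and, among the members, in IFITM1 alone, where it overlaps the ISRE match nearest the start. Both IFITM1 windows and the IFITM3 window lie in exons of longer transcripts of those genes, and the IFIT5 windows overlap an exon of LIPA, on the opposite strand, by 20 and 11 bases. These are matches of letters, and binding was not measured.

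In HT29, 6 of the 7 members rose in 3D and IFIT5 fell. The increase was 2.47-fold for IFIT1, 2.89-fold for IFIT2, 2.51-fold for IFIT3, 1.94-fold for IFITM2 and 3.497-fold for IFITM3. All 7 were called at an adjusted p under 0.05 (edgeR quasi-likelihood test with Benjamini-Hochberg adjustment over all tested genes), where 40.7% of all tested genes were called. By direction, 21.1% of the tested genes were called higher and 19.6% lower. The median log2 fold change of the members was 1.33, and that of all tested genes 1.7e-04.

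IFIT1, which recognises RNA caps that lack ribose methylation, had 4.25, 3.23 and 3.89 CPM in the 2D libraries of HT29 and 9.56, 8.37 and 10.1 CPM in the 3D libraries. Every 3D library lay above every 2D library, and the log2 fold change was 1.30 (SE 0.20, adjusted p = 2.8e-05, edgeR). IFIT2, the member best known for its association with cell death, went from 3.12, 1.65 and 3.62 CPM to 8.11, 6.92 and 8.82 CPM. Its log2 fold change was 1.53 (SE 0.29, adjusted p = 2.1e-04, edgeR), and 2D replicate 2 was its lowest library. IFIT3, which stabilises IFIT1 in a complex, went from 4.66, 3.54 and 4.44 CPM to 11.3, 9.58 and 10.7 CPM, again without overlap. Its log2 fold change was 1.33 (SE 0.28, adjusted p = 7.5e-04, edgeR).

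IFIT5, which binds RNA with triphosphate ends, took the other direction in HT29. It had 9.02, 11.7 and 11.2 CPM in 2D and 7.96, 6.71 and 8.85 CPM in 3D, so the lowest 2D library was just above the highest 3D library. The log2 fold change was -0.44 (SE 0.13, adjusted p = 0.011, edgeR). This call is the least secure of the 7, and was kept in 7 of 12 alternatives. It was lost with 2D replicate 2 (adjusted p = 0.098, edgeR), 2D replicate 3 (0.057) or 3D replicate 3 (0.12) left out. It was also lost with all genes of at least 1 count in the fit (0.072). The same held with the replicate number as a block (0.069), a fit that held only the HT29 libraries numbered 1 and 3.

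IFITM1, found mainly at the cell surface, was at the floor in HT29 grown in 2D, with 4, 1 and 3 counts per library, and had 70, 35 and 37 counts in 3D. The ratio of the summed counts, scaled for depth, was 15.1, with an exact 95% interval of 7.48 to 35.8 that covers counting error only (adjusted p = 4.3e-04, edgeR). IFITM2, an endosomal protein, had 22.2, 14.9 and 23.0 CPM in 2D and 45.4, 33.5 and 37.3 CPM in 3D. It was the most abundant IFITM gene of HT29 per length in both growth conditions, and its log2 fold change was 0.96 (SE 0.19, adjusted p = 3.5e-04, edgeR). IFITM3, which restricts influenza virus in endosomes, went from 2.64, 1.58 and 3.34 CPM to 10.3, 7.88 and 7.51 CPM (log2 fold change 1.81, SE 0.25, adjusted p = 7.5e-06, edgeR). None of the 3 IFITM genes overlapped between growth conditions.

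No overlap between libraries was thus seen for 6 members higher in 3D and 1 lower in HT29, where 27.3% of all tested genes were higher and 25.6% lower without overlap. Leukocyte markers moved the same way in HT29, from between 6.85 and 8.09 CPM summed over 7 genes in 2D to between 12.8 and 17.7 CPM in 3D. Of those genes 2 were over the floor in a 2D library and 3 in a 3D library, and CD3E, PTPRC and MS4A1, markers of T cells, of all leukocytes and of B cells, had at most 2 counts in any library. The 3 endothelial markers summed to between 0.929 and 1.48 CPM in 2D and between 1.73 and 2.38 CPM in 3D cultures of HT29, and were also higher in 3D without overlap in LS513 (at most 0.0604 CPM in 2D and 0.568 in 3D) and HCT116 (0.431 and 0.997). The part of these markers in the results was not tested.

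**Figure D1:**
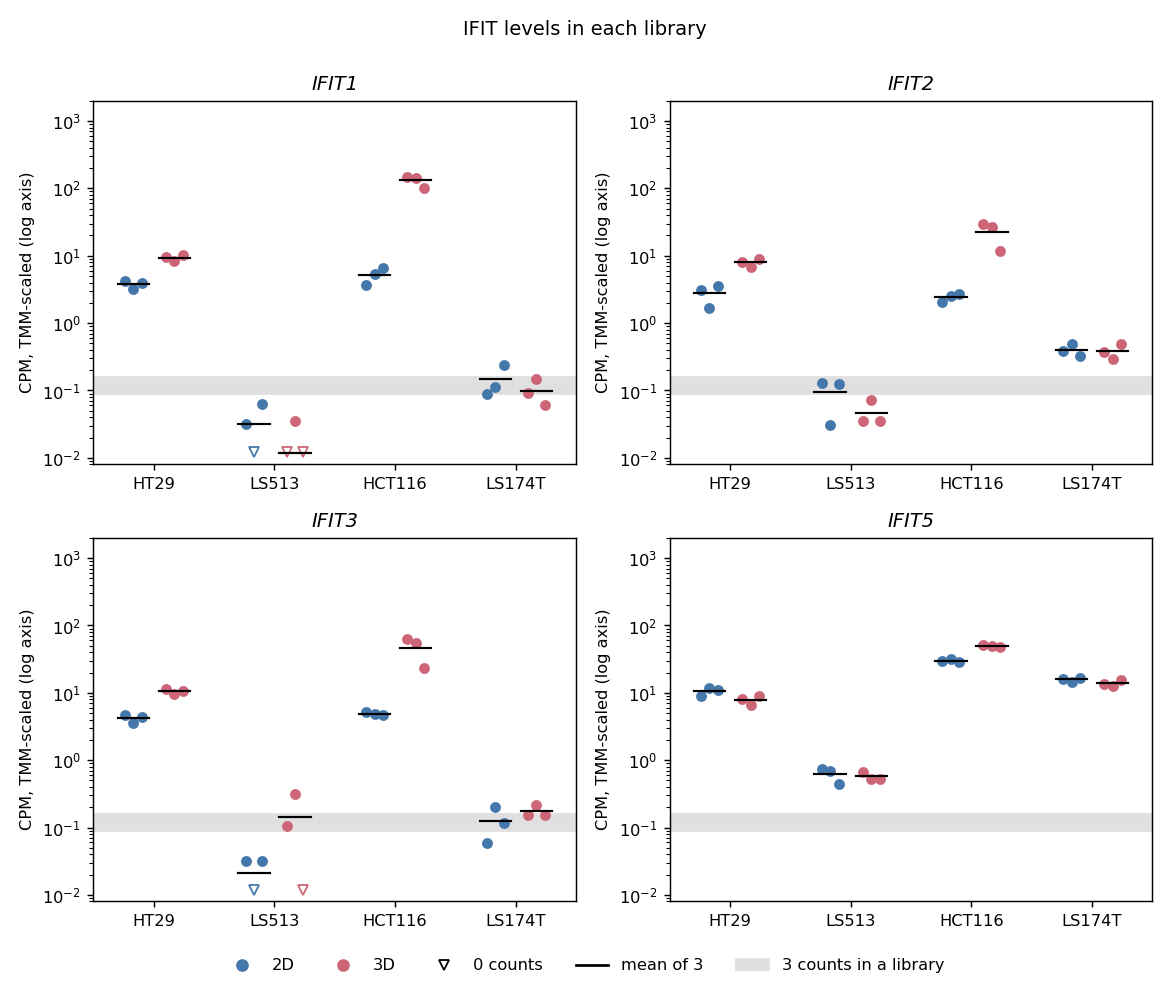
Levels of the 4 IFIT genes in CPM (TMM-scaled, log axis) in each of the 24 libraries, with 1 point per library, 2D in blue and 3D in red, black lines for the mean of 3 libraries, open triangles for libraries with 0 counts and a grey band for the level of 3 counts. IFIT1 and IFIT3 sit below, at or near the grey band in LS513 and LS174T, and so does IFIT2 in LS513. In LS174T IFIT2 is above the band, from 0.292 to 0.491 CPM. In HT29 and HCT116 IFIT1, IFIT2 and IFIT3 are above it. IFIT5 is above the band in every library, from 0.444 CPM in LS513 to 51.7 CPM in HCT116.

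**Figure D2:**
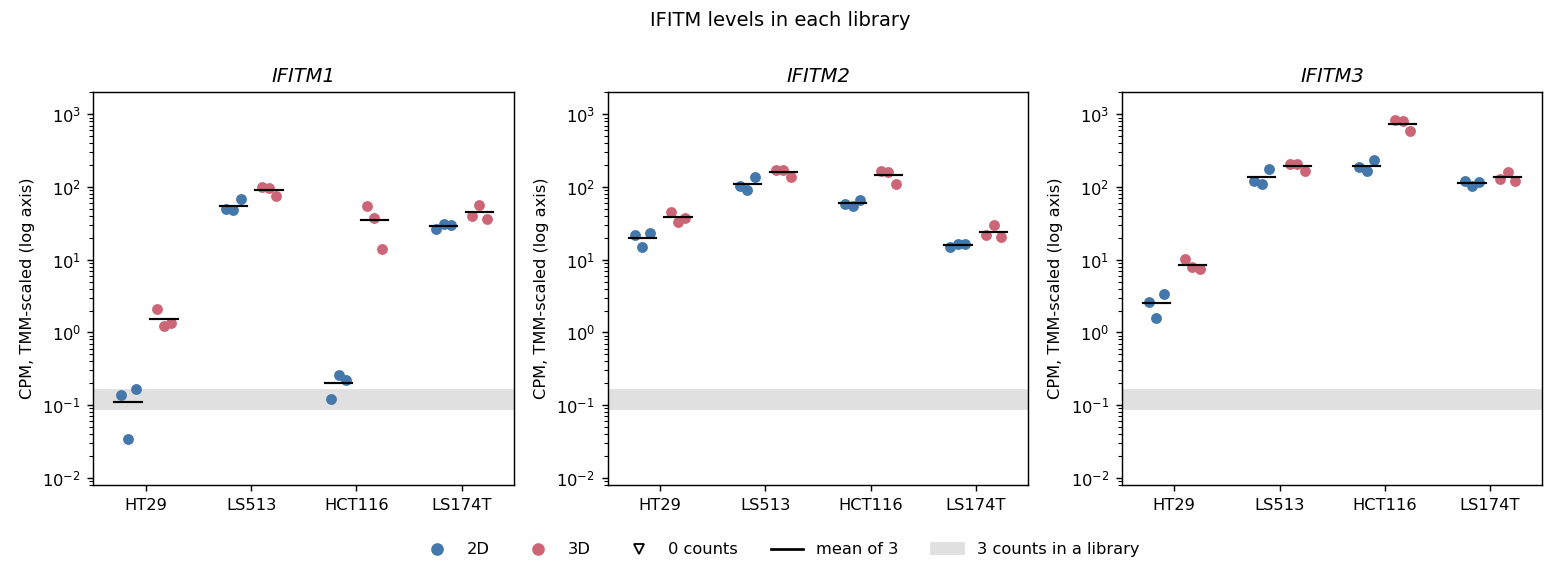
Levels of the 3 IFITM genes, drawn in the same way. IFITM1 is below, at or near the grey band in 2D cultures of HT29 (0.0344 to 0.164 CPM). In 2D cultures of HCT116 it is at or just above the band (0.121 to 0.259 CPM). IFITM1 is between 26.7 and 99.7 CPM in LS513 and LS174T, and IFITM3 is at most 10.3 CPM in HT29 and at least 104.4 CPM in the other lines.

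LS513 and LS174T had IFITM mRNA in quantity and hardly any IFIT1, IFIT2 or IFIT3. In LS513, IFIT1 had 1, 0 and 2 counts in 2D and 0, 1 and 0 in 3D, and IFIT3 had 1, 0 and 1 counts in 2D and 3, 9 and 0 in 3D. IFIT2 had 4, 1 and 4 counts in 2D and 1, 2 and 1 in 3D. IFIT1 and IFIT2 were at or near the floor in both growth conditions, so no fold is given for them, and a change was not detectable at this depth. For IFIT3 the summed counts were 2 in 2D and 12 in 3D, of which 9 came from 3D replicate 2 (adjusted p = 0.13, edgeR), and the adjusted p was 0.038 without 3D replicate 3 and 0.70 without 3D replicate 2. IFIT5 was also low in LS513, with 23, 23 and 14 counts in 2D and 19, 15 and 15 in 3D (log2 fold change -0.13, SE 0.24, adjusted p = 0.81, edgeR).

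The IFITM genes of LS513 were higher in 3D on average, and 1 of the 7 members was called, where 23.6% of all tested genes were called and 13.7% were called higher. That gene was IFITM2, with 101.8, 91.4 and 138.3 CPM in 2D and 170.7, 172.4 and 135.5 CPM in 3D. Its log2 fold change was 0.53 (SE 0.18, adjusted p = 0.035, edgeR), although 2D replicate 3 lay above 3D replicate 3. The call was lost without 2D replicate 1 (adjusted p = 0.13), 2D replicate 2 (0.18), 3D replicate 1 (0.13) or 3D replicate 2 (0.14), and with the replicate number as a block (0.058).

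IFITM1 had 50.4, 47.7 and 68.4 CPM in 2D and 99.7, 97.0 and 74.5 CPM in 3D cultures of LS513, without overlap. It was the only member in LS513 with separate groups, and 23% of all tested genes were higher in 3D without overlap. Its log2 fold change was 0.70 (SE 0.29, adjusted p = 0.081, edgeR). IFITM3 had 119.7, 108.7 and 178.4 CPM in 2D and 205.6, 205.8 and 165.3 CPM in 3D, with a log2 fold change of 0.50 (SE 0.19, adjusted p = 0.055, edgeR). For both families in LS513, 2D replicate 2 held the lowest level of its group in 6 of the 7 members, and so did 3D replicate 3. IFITM3 passed the threshold without 2D replicate 3 (log2 fold change 0.75, adjusted p = 0.0076) or 3D replicate 3 (0.60, adjusted p = 0.034).

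In LS174T 1 of the 7 members was called, again IFITM2, where 22.2% of all tested genes were called and 13.1% were called higher. It had 14.9, 16.5 and 16.7 CPM in 2D and 21.6, 30.2 and 20.5 CPM in 3D, with a log2 fold change of 0.58 (SE 0.19, adjusted p = 0.030, edgeR). The call was lost without any of the 3 libraries of the 2D group (adjusted p = 0.10, 0.067 and 0.066 for replicates 1, 2 and 3), without 3D replicate 2 (0.22), which was the highest of its group in 5 of the 7 members, with the replicate number as a block (0.056) and with only the LS174T libraries in the fit (0.062). IFITM1 had 26.7, 30.8 and 29.6 CPM in 2D and 40.2, 57.5 and 36.4 CPM in 3D (log2 fold change 0.62, SE 0.29, adjusted p = 0.13, edgeR). IFITM3 had 120.5, 104.4 and 118.0 CPM in 2D and 131.1, 162.0 and 122.4 CPM in 3D (0.28, SE 0.19, adjusted p = 0.30, edgeR). The groups did not overlap for any of these 3 genes, and 20.9% of all tested genes were higher in 3D without overlap in this line.

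No IFIT gene of LS174T was called. IFIT5 had 16.1, 14.6 and 16.7 CPM in 2D and 13.7, 12.7 and 15.6 CPM in 3D, with overlapping groups (log2 fold change -0.17, SE 0.13, adjusted p = 0.35, edgeR). IFIT2 had 13, 17 and 11 counts in 2D and 12, 8 and 16 in 3D (-0.05, SE 0.47, adjusted p = 0.99, edgeR). IFIT1 had 3, 4 and 8 counts in 2D and 3, 4 and 2 in 3D, and IFIT3 had 2, 7 and 4 in 2D and 5, 6 and 5 in 3D, so both were close to the floor throughout.

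In HCT116, the line by which IFITM1 was picked, each of the 7 members was higher in every 3D library than in any 2D library, as were 22.8% of all tested genes. Nothing is read from this count, since the contrast was used to pick IFITM1. IFITM1 had 4, 9 and 7 counts in the 2D libraries, which is 0.121, 0.259 and 0.225 CPM. The 3D libraries had 54.7, 37.1 and 14.2 CPM, and the ratio of the summed counts, scaled for depth, was 175 (exact 95% interval 113 to 287, counting error only). IFIT1 went from 3.62, 5.32 and 6.48 CPM to 148.9, 144.3 and 102.2 CPM, a fitted increase of 25.6-fold.

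IFIT2 went from 2.08, 2.53 and 2.70 CPM to 30.02, 27.1 and 11.6 CPM in HCT116, and IFIT3 from 5.26, 4.86 and 4.62 CPM to 62.2, 55.2 and 23.7 CPM. IFITM3 had the highest level per length of the 7 members in this line, with 187.8, 167.5 and 237.7 CPM in 2D and 838.7, 810.5 and 582.5 CPM in 3D. IFITM2 went from 58.8, 55.6 and 65.3 CPM to 166.7, 160.2 and 110.9 CPM. IFIT5 went from 29.3, 32.3 and 28.7 CPM to 51.7, 50.3 and 48.6 CPM, which was the smallest log2 fold change of the 7 (0.74, SE 0.12).

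The 3D libraries of HCT116 were ordered alike for each member. Replicate 1 was the highest of its group in 7 of the 7 members and replicate 3 the lowest in 7 of the 7, with IFITM1 at 14.2 CPM in replicate 3 against 54.7 CPM in replicate 1. Without replicate 3 the log2 fold change of IFITM1 was 7.78 in place of 7.42 and that of IFIT3 was 3.55 in place of 3.26. Summed fibroblast markers in HCT116 were between 13.1 and 15.2 CPM in 2D and between 10.2 and 22.1 CPM in 3D, and their part in the result was not tested.

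A stricter count also asked for fold limits taken from the study, below -0.5 or above 1.5 on the log2 scale, beside the adjusted p. The study states these limits with a p that is not said to be adjusted. For its gene set analysis the study used a less strict upper limit, which was not applied here. By the stricter count 3 members were called in HT29 (IFIT2, IFITM1 and IFITM3), where 17.4% of all tested genes were called. IFIT1 and IFIT3 in HT29, at 1.30 and 1.33, lay under the upper limit of 1.5. None was called in LS513 (8.03% of tested genes) or LS174T (7.26%), and in HCT116, where 9.28% of tested genes were called, the members were not counted. With the unadjusted p in place of the adjusted one, IFIT3 in LS513 would be called, above the upper limit (log2 fold change 2.53, unadjusted p = 0.046, edgeR).

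**Figure D3:**
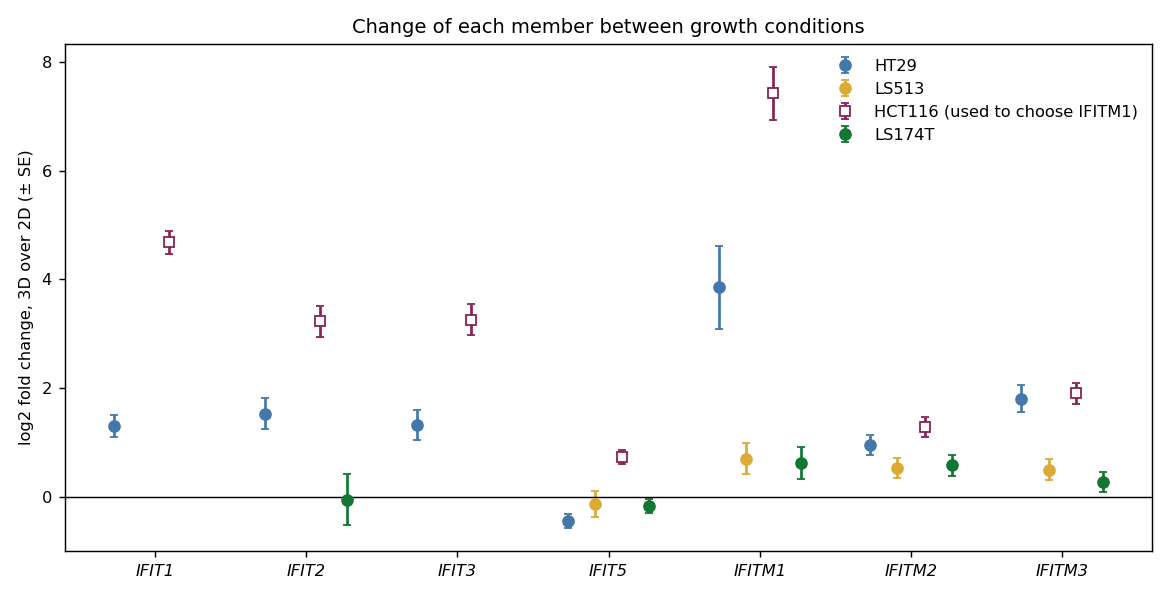
Log2 fold change of each member, 3D over 2D, with its standard error as bars, for each line, leaving out members with under 30 counts over the 6 libraries of a line. HCT116, in open squares, is a description because IFITM1 was picked by its value there, and IFIT5 is the member with a value below 0 in HT29 (-0.44), LS513 (-0.13) and LS174T (-0.17) and above 0 in HCT116 (0.74).

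The size of the change was then compared between HT29, LS513 and LS174T, the lines that the choice of members did not use. It differed for IFITM3 (adjusted p = 0.0038, edgeR) and IFITM1 (adjusted p = 0.033, edgeR), and 13.7% of all tested genes were called by that test. For IFITM3 the log2 change in HT29 exceeded that in LS513 by 1.30 (SE 0.31, adjusted p = 0.0070, edgeR) and that in LS174T by 1.53 (SE 0.31, adjusted p = 0.0036, edgeR). For IFITM1 it exceeded LS513 by 3.15 (SE 0.87, adjusted p = 0.019, edgeR) and LS174T by 3.23 (SE 0.87, adjusted p = 0.026, edgeR), on 1 to 4 counts in each 2D library of HT29. The IFITM1 difference was lost without HT29 2D replicate 1 (adjusted p = 0.076, edgeR), HT29 2D replicate 2 (0.14) or HT29 3D replicate 1 (0.093). It was also lost without LS174T 3D replicate 2 (0.054) or LS174T 3D replicate 3 (0.062), and with technical replicate d left out of the sums. IFIT2 (adjusted p = 0.058), IFIT1 (0.095), IFITM2 (0.46), IFIT5 (0.53) and IFIT3 (0.58) did not pass, and IFIT1, IFIT2 and IFIT3 were near the floor in LS513. Over 24 alternatives IFIT2 passed in 5 and IFIT1 in 3. Both passed with all genes of at least 1 count, with only the libraries of the lines compared and with DESeq2. IFIT2 also passed without HT29 2D replicate 3 (0.043) or LS513 2D replicate 2 (0.047).

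The lines were also compared with each other in 2D. All 7 members differed between HT29 and LS513, where 60.6% of all tested genes were called (29.6% higher and 30.9% lower in HT29), with the IFIT genes higher in HT29 and the IFITM genes higher in LS513. For IFITM1 the log2 difference, HT29 over LS513, was -8.99 (SE 0.55, adjusted p = 2.1e-12, edgeR), and for IFITM3 it was -5.79 (SE 0.25, adjusted p = 1.5e-15, edgeR). Between HT29 and LS174T 6 of 7 differed, where 64.6% of all tested genes were called (30.1% higher and 34.4% lower in HT29), and the exception was IFITM2 (0.31, SE 0.19, adjusted p = 0.16, edgeR), which passed without HT29 2D replicate 2 (0.51, adjusted p = 0.030). IFIT5 was the IFIT gene that was lower in HT29 than in LS174T (-0.57, SE 0.13, adjusted p = 4.1e-04, edgeR).

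Between LS513 and LS174T 5 of 7 differed in 2D, where 57.6% of all tested genes were called (27.5% higher in LS513 and 30.1% lower). IFIT5 was lower in LS513 by 4.65 on the log2 scale (-4.65, SE 0.17, adjusted p = 7.5e-17, edgeR), and IFITM2 was higher there (2.78, SE 0.20, adjusted p = 1.3e-11, edgeR). IFITM1 was higher in LS513 (0.93, SE 0.29, adjusted p = 0.0085, edgeR), which missed the threshold without LS513 2D replicate 3 (0.051). IFITM3 (0.25, SE 0.19, adjusted p = 0.28, edgeR) and IFIT3 (adjusted p = 0.090) did not pass. IFIT1, called at an adjusted p of 0.034, was lost without LS513 2D replicate 1 (0.072), LS513 2D replicate 2 (0.13) or LS174T 2D replicate 3 (0.17), at 0 to 8 counts a library.

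Over the 8 groups, the order of mean levels was led by HCT116 grown in 3D for IFIT1, IFIT2, IFIT3, IFIT5 and IFITM3. HT29 grown in 3D came next for IFIT1, IFIT2 and IFIT3, and its libraries did not overlap with those of the group above or the group below. HT29 and HCT116 grown in 2D overlapped with each other for these 3 genes. IFITM1 was led by LS513 grown in 3D (90.4 ± 13.9 CPM, SD, n = 3), and the libraries of LS513 in 2D, LS174T in 3D, HCT116 in 3D and LS174T in 2D overlapped from each group to the next. IFITM2 was led by LS513 and HCT116 grown in 3D, at 159.5 ± 20.9 and 145.9 ± 30.5 CPM, which overlapped.

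Per exonic length, the make-up of each family could be set side by side for the lines. IFITM2 made up 87.1% ± 1.9 (SD, n = 3) of the summed IFITM level in HT29 grown in 2D and 76.4% ± 1.4 in 3D, while IFITM3 made up 69.4% ± 2.9 in LS174T and 78.8% ± 1.6 in HCT116 grown in 2D. In LS513 the 3 IFITM genes were closer, with 23.1% ± 0.90 for IFITM1, 32.1% ± 0.68 for IFITM2 and 44.8% ± 1.4 for IFITM3 in 2D. IFIT5 made up 95.7% ± 1.2 of the IFIT level in LS174T grown in 2D and 95.03% ± 0.49 in 3D. In HT29 the IFIT5 share was 46.2% ± 7.5 in 2D and 19.7% ± 0.99 in 3D, and IFIT3 went from 27.8% ± 3.0 to 40.4% ± 1.8. In HCT116, IFIT1 went from 10.05% ± 2.7 to 44.8% ± 3.0 and IFIT5 from 67.7% ± 2.2 to 20.3% ± 5.2.

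**Figure D4:**
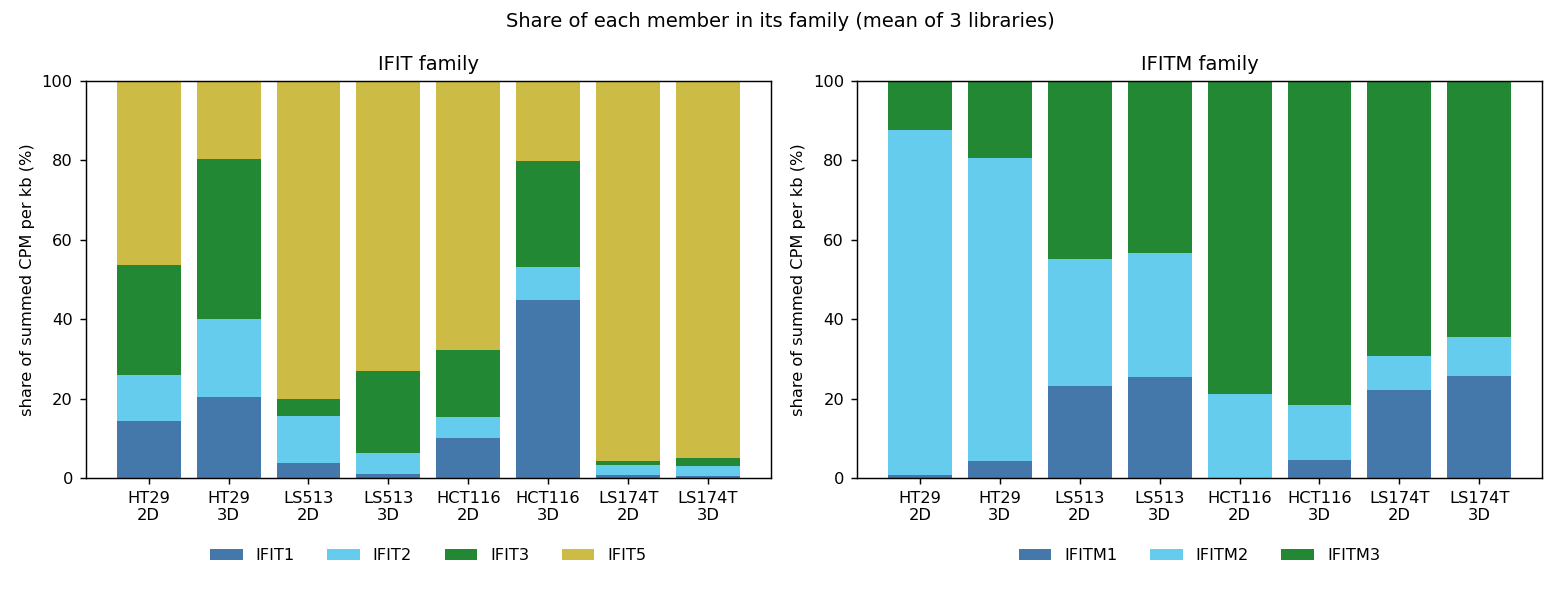
Share of each member in the summed CPM per kb of exon of its family, in percent, as the mean of 3 libraries in each group (stacked bars). IFITM2 takes the largest part of the IFITM bar in HT29 (87.1% in 2D), IFITM3 in the other lines, and IFIT5 takes nearly the whole IFIT bar in LS174T (95.7% in 2D).

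Across the 24 libraries the log2(CPM + 1) levels of IFIT1, IFIT2 and IFIT3 followed each other closely, with Pearson correlations of 0.97, 0.98 and 0.99 between the 3 pairs. IFIT5 correlated with them at 0.64 to 0.66. Among the IFITM genes the correlation was 0.65 for IFITM1 with IFITM3, 0.59 for IFITM2 with IFITM3 and 0.42 for IFITM1 with IFITM2, and IFITM1 was negatively correlated with each IFIT gene, from -0.32 to -0.44. The 24 points fall into 4 lines, so these values mostly describe differences between lines. Outside the families, the gene closest to IFIT1 was IFI44 (r = 0.97), followed by IFI6 (0.97). IFI44 (0.96), HHAT (0.96) and CD96 (0.95) were closest to IFIT2, and SUSD3 (0.97), CD96 (0.96) and CHRD (0.96) to IFIT3. NR2F1-AS1 (0.99), FCHO1 (0.98) and ARHGAP10 (0.98) were closest to IFIT5, the first of them an antisense gene whose reads cannot be told from those of its partner where strand is not used. For the IFITM genes they were NGLY1 (0.96), MEGF6 (0.95) and ANKZF1 (0.94) for IFITM1, KLF9 (0.96), PTPN6 (0.96) and FAM86JP (0.95) for IFITM2, and DEF6 (0.98), SDC3 (0.98) and L1CAM (0.97) for IFITM3.

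Other annotated family genes gave little signal. IFITM10 was the only one of 8 that was tested, with 4032 counts over all libraries, and IFIT1B and IFITM5 had 2 and 1. The pseudogenes IFIT1P1 and IFITM4P had 51 and 47 counts.

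Messenger RNA of the interferons themselves was scarce. Of 11 ligand genes 1 was tested, IFNE, and it was called in no line at an adjusted p under 0.05 (edgeR). IFNL1 had 47 counts over all libraries, and its highest library had 15 counts in HT29 and 6 in HCT116 grown in 3D, against 2 and 1 in 2D, with 0 in every library of LS513 and LS174T. IFNL2 and IFNL3 had 8 and 22 counts in all, none of them in a 2D library of HT29 or HCT116. IFNK, IFNW1, IFNA2 and IFNG had 0 counts, IFNA1 and IFNB1 1 each and IFNA5 2. Transcripts under the floor cannot be told from absence at this depth.

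Among 25 other interferon-induced genes, all of them tested, 17 rose and 2 fell in HT29 (21.1% and 19.6% of all tested genes) and 8 rose and 0 fell in LS513 (13.7% of all tested genes rose). In LS174T 2 rose and 4 fell, and 22.2% of all tested genes were called in either direction there. These shares of all tested genes (40.7% in HT29, 23.6% in LS513 and 22.2% in LS174T in either direction) are also the background for the smaller lists that follow, and nothing particular to those lists is read from their counts. The median log2 fold change of the list was 1.37 in HT29, 0.60 in LS513 and 0.10 in LS174T, against 1.7e-04, 0 and 0.016 for all tested genes. The LS513 median was the value of MX1, with at most 9 counts in a 2D library and 11 in a 3D library. The LS174T median was the value of HERC5, with at most 1 count in any library of that line. Both medians thus rest on genes with few counts and are not read as a response of the list. In HCT116, in the contrast used to pick IFITM1, 25 of 25 were called higher (16.8% of all tested genes were called higher and 29.1% in either direction). The median of the list there was 2.59, against 0.011 for all tested genes. These HCT116 values are a description, and nothing is read from the count. The largest change among the called genes was in IFI44L for HT29 (at most 2 counts in a 2D library and 29 in a 3D library, adjusted p = 0.0038, edgeR), and in RSAD2 for LS513 (at most 0 and 5 counts, adjusted p = 0.013, edgeR), which encodes the antiviral enzyme viperin. In LS174T it was in SAMD9, which fell by 0.93 on the log2 scale (SE 0.31, adjusted p = 0.037, edgeR), while ISG15 and OAS1 were the genes that rose. SAMD9 also fell in HT29 (-1.10, SE 0.19, adjusted p = 1.2e-04, edgeR), together with EIF2AK2, and rose in LS513 (0.87, SE 0.22, adjusted p = 0.0050, edgeR).

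Of 6 receptor genes, 2 rose in HT29 and 3 each in LS513 and LS174T, and none fell. IL10RB, a subunit of the type III interferon receptor, rose by 0.57 on the log2 scale in HT29 (SE 0.10, adjusted p = 9.1e-05, edgeR). IFNGR2, of the interferon gamma receptor, rose by 0.87 in LS513 (SE 0.10, adjusted p = 9.2e-07, edgeR) and IFNGR1 by 0.34 in LS174T (SE 0.09, adjusted p = 0.010, edgeR). Of 11 kinases and transcription factors, 2 rose and 1 fell in HT29, 3 rose and 1 fell in LS513, and 2 fell in LS174T. IRF9, the partner of STAT2, rose by 0.64 in HT29 (SE 0.17, adjusted p = 0.0038, edgeR), IRF7 by 1.13 in LS513 (SE 0.23, adjusted p = 7.3e-04, edgeR), and JAK2 fell in LS174T (-0.64, SE 0.23, adjusted p = 0.046, edgeR).

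Of 9 tested sensors and adaptors, 5 rose and 2 fell in HT29, 1 rose in LS513, and 1 rose and 1 fell in LS174T. The largest were DHX58, an RNA sensor, in HT29 (1.80, SE 0.28, adjusted p = 3.4e-05, edgeR), TICAM1, the adaptor of TLR3, in LS513 (0.82, SE 0.14, adjusted p = 1.1e-04, edgeR) and TMEM173, which encodes STING, in LS174T (1.08, SE 0.23, adjusted p = 0.0022, edgeR). Of 5 negative regulators, USP18 rose in HT29 (0.89, SE 0.22, adjusted p = 0.0027, edgeR) and PTPN2 fell, and none was called in LS513 or LS174T. In HCT116 8 of the 11 kinases and transcription factors were called higher in 3D and 1 lower (JAK2). Of the 9 tested sensors and adaptors 5 were called higher and 1 lower (TBK1). The largest changes were in IRF7 (3.43, SE 0.22) and DDX58 (2.60, SE 0.15). In this line 29.1% of all tested genes were called in either direction, and nothing is read from these counts, since the contrast was used to pick IFITM1.

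**Figure D5:**
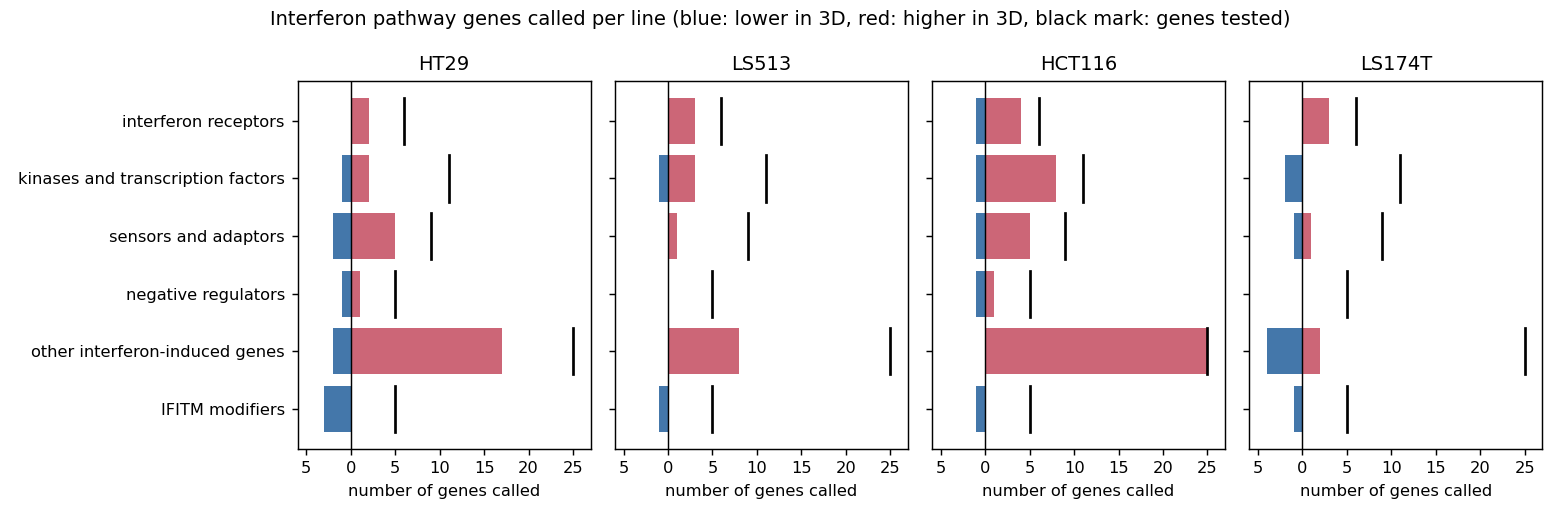
Number of genes of each interferon pathway list and of the IFITM modifiers called in each line at an adjusted p under 0.05, with genes lower in 3D to the left in blue, genes higher to the right in red, and a black mark at the number tested. Among the other interferon-induced genes 17 of 25 were higher in HT29, 8 in LS513 and 2 in LS174T, and HCT116 (25) is a description.

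Proteins that modify or assist IFITM proteins were also counted. Of 5 such genes, ZMPSTE24, a membrane protease that acts with IFITM proteins, was lower in 3D in HT29 (-0.64, SE 0.14, adjusted p = 0.0011, edgeR), LS513 (-0.47, SE 0.14, adjusted p = 0.018, edgeR) and LS174T (-0.48, SE 0.14, adjusted p = 0.021, edgeR), and stood at -0.64 (SE 0.14) in HCT116. The ubiquitin ligase NEDD4 (-0.67, SE 0.16, adjusted p = 0.0026, edgeR) and the segregase VCP (-0.42, SE 0.10, adjusted p = 0.0014, edgeR) fell in HT29. ZDHHC20, which attaches palmitate, and SETD7, a methyltransferase, were called in none of HT29, LS513 and LS174T, with the smallest adjusted p at 0.053 for SETD7 in HT29 (edgeR).

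The neighbours of the members on the chromosome were counted as well. Within 200 kb of the IFIT cluster 1 of 9 other genes was tested, LIPA, a lysosomal lipase, and it was called in none of HT29, LS513 and LS174T (log2 fold changes 0.17, 0.18 and 0.06). In HCT116 it stood at 0.58 (SE 0.12). Within 200 kb of the IFITM cluster 13 of 34 other genes were tested. None was called in HT29, 2 in LS513 (BET1L and PKP3) and 1 in LS174T (PKP3). PKP3, which encodes the junction protein plakophilin, rose by 0.55 in LS513 (SE 0.12, adjusted p = 0.0023, edgeR) and by 0.38 in LS174T (SE 0.12, adjusted p = 0.033, edgeR).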

How the data were processed

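Poly(A) RNA of 24 libraries was sequenced as single reads of 75 bases with a strand-specific kit. The authors trimmed the reads (Trim Galore 0.4.1), aligned them with STAR, removed reads that aligned more than once and counted the rest per gene on Ensembl 91 with HTSeq-count 0.5.3, and the deposited values are raw counts without normalization. The strand setting of the counting is not given in the sources used here. The submitters' notes name another genome build, and the identifiers in the files match the Ensembl 91 annotation. Of 58243 identifiers 57980 matched GENCODE 29, used for positions and lengths.

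Each library was deposited as 8 technical replicates, of which 1 HT29 library in 3D was used with 7. They differed by 1.00 to 1.03 times the sampling noise and were summed, and libraries of a group differed by 2.06 to 33.8 times. Library totals ran from 18723942 to 34277421 counts. Counts were filtered with filterByExpr (19387 genes kept), scaled by TMM and fitted with edgeR 4.0.16 in R 4.3.3 (robust quasi-likelihood, all 24 libraries, 8 group coefficients), with Benjamini-Hochberg adjustment over all tested genes and no fold cutoff. An exact permutation test of 3 libraries against 3 cannot go below p = 0.1 and was not used. CPM values are TMM-scaled. Summed-count ratios carry exact binomial intervals at 95%, which cover counting error only.

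The groups came from the labels. The members and gene lists were chosen with earlier results of these data known. Genes named are the members, the other family genes, the 3 genes most like each member, all genes of the ligand and modifier lists, and from every other list the called gene with the largest change in each line. Other genes, spelled out from a count of 5 or fewer, the values of SAMD9 in HT29 and LS513 and of LIPA, and MX1 and HERC5 were named after their values were seen. Some named items that this rule selects are not reported here. The fit was tested on simulated data. Alternatives were DESeq2 size factors, all genes with at least 1 count, the replicate number as a block, sums without technical replicate d, fits restricted to the lines compared, DESeq2 1.42.0, a fold cutoff, and each library left out in turn. Alternatives for the lists, the neighbours and the length used for family shares were added after seeing the data. The replicate block left out HT29 2D replicate 2 and HT29 3D replicate 4, whose numbers occur in only 1 growth condition.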

Additional observations from a re-analysis of the deposited data

Results flagged for a closer look

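The 3D change differed between HT29, LS513 and LS174T for IFITM3 (adjusted p = 0.0038, edgeR) and for IFITM1 (adjusted p = 0.033, edgeR). In HT29 the log2 fold changes were 1.81 and 3.85, against 0.50 and 0.70 in LS513 and 0.28 and 0.62 in LS174T, and the 3D mean was the higher in all 3 lines for both genes. Over 24 alternatives the adjusted p of IFITM3 passed the threshold in 23, the exception being the replicate block, and that of IFITM1 in 18.

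IFIT5 was lower in every 3D library of HT29 than in any 2D library (log2 fold change -0.44) and higher in every 3D library of HCT116 (0.74). This difference was not tested, because the HCT116 contrast was used to pick a member.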

How the results depend on the processing

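Over the member changes within a line, 302 recomputed values kept their direction and their side of the threshold, 16 lost the call, 9 gained it and 4 reversed. The reversed log2 fold changes were IFIT5 in LS513 without 2D replicate 1 (0.0068) and IFIT2 in LS174T without technical replicate d (0.06), without 2D replicate 2 (0.12) and without 3D replicate 2 (0.11), none of them called. With each library left out, IFIT5 in LS513 ranged from -0.32 to 0.0068 and IFIT2 in LS174T from -0.26 to 0.12. With each library left out, the members called ranged from 6 to 7 in HT29, 0 to 3 in LS513 and 0 to 1 in LS174T, those whose change differed between lines from 1 to 3, and those that differed between lines in 2D from 7 to 7 (HT29 and LS513), 6 to 7 (HT29 and LS174T) and 4 to 5 (LS513 and LS174T). With all genes of at least 1 count, 4 members were called in LS513, 2 in LS174T and 4 for the difference between lines. With only the libraries of the lines compared these were 2, 0 and 4. DESeq2 called 4 for the difference between lines, and leaving out technical replicate d 1. With a log2 fold change cutoff under -0.5 or over 1.5, 3 members were called in HT29, 0 in LS513 and 0 in LS174T. The cause of these changes was not tested.

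Same-numbered libraries of a line correlated in their deviations from the group means from -0.13 to 0.08, so no shared deviation by number was seen. These values cannot say whether same-numbered cultures were grown or processed together, which the sources used here do not state. The replicate block kept only numbers present in both growth conditions, so HT29 was fitted with replicates 1 and 3 of each. For HT29 the block and the smaller set of libraries cannot be told apart. With the replicate block 6 members were called in HT29 (IFIT5 lost) and 0 in LS174T (IFITM2 lost, adjusted p = 0.056, edgeR). In LS513 1 was called, where IFITM1 was gained (0.029) and IFITM2 lost (0.058). For the difference between lines 1 member was called (IFITM1, with IFITM3 at an adjusted p of 0.11), and 0 neighbouring genes were called in LS174T.

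The lists held 1 tested ligand gene, 6 receptors, 11 kinases and transcription factors, and 9 sensors and adaptors. They also held 5 negative regulators, 25 other interferon-induced genes and 5 IFITM modifiers, all tested. Of the interferon pathway genes and IFITM modifiers together 36 (HT29), 17 (LS513), 48 (HCT116) and 14 (LS174T) were called. The shares of all tested genes called in these lines were 40.7%, 23.6%, 29.1% and 22.2%. With the fold cutoff 18, 2, 31 and 6 were called, where 17.4%, 8.03%, 9.28% and 7.26% of all tested genes were called. The HCT116 counts are a description, and nothing is read from these totals. With each library left out the genes of these lists that were called ranged from 28 to 36, 13 to 18, 43 to 50 and 5 to 20. LS174T had 5 without 3D replicate 2, 9 without 2D replicate 1 or 2 and 8 without 2D replicate 3. With only its own libraries LS174T had 5. Neighbouring genes called were 0, 2, 3 and 1, and with each library left out 0 to 3, 2 to 3, 1 to 5 and 0 to 4. In HT29 they were 2 with DESeq2 size factors, with all genes, with only its libraries and with DESeq2. In LS513 they were 4 with only its libraries. In LS174T they were 2 with DESeq2 size factors, 3 with all genes, 2 without technical replicate d, 0 with only its libraries and 2 with DESeq2. The fold cutoff left 0 in LS513, HCT116 and LS174T.

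Over all tested genes, 7887, 4571, 5637 and 4305 were called in HT29, LS513, HCT116 and LS174T, and 3371, 1557, 1800 and 1407 with the fold cutoff. In LS174T 1648 were called with only its libraries, 2083 without 3D replicate 2 and 2709, 2781 and 2616 without 2D replicates 1, 2 and 3, in LS513 3030 without 2D replicate 2 and 2784 without 3D replicate 2, and in HCT116 3747 without 2D replicate 1. For the difference between lines 2649 became 1262 with the block. Family shares moved by more than 1 SD in 5 of 56 cases when windows shared with another gene were left out of the length. With a pseudocount of 0.1, 0 of the 3 genes most like IFITM1 remained, 1 for IFIT3 and IFIT5 and 2 for the others.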
